A study of Arabidopsis thaliana with 2 samples.

Results

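Transcripts of 8 loci known for guiding the pollen tube to the ovule of *Arabidopsis thaliana* were examined in RNA-Seq data of the central cell, the cell of the embryo sac that forms the endosperm after fertilization. The loci were picked by name and not by their level, although earlier results of these data were known. Among them were the attractant genes LURE1.1 (AT5G43285), LURE1.2 (AT5G43510), LURE1.3 (AT5G43513), LURE1.4 (AT5G43518) and LURE1.5 (AT5G43525). The others were the transcription factor MYB98 (AT4G18770), CENTRAL CELL GUIDANCE (CCG, AT2G02955) and its binding partner CBP1 (also MEE14, AT2G15890). They are 8 loci beside the 17419 that were listed in at least 1 of the 2 libraries. There was 1 condition: mature central cells of the accession Landsberg *erecta*, cut by laser from sections of fixed flowers that had been emasculated 2 days before, with no mutant, transgene or treatment. Each of the 2 biological replicates, CC1 and CC2, began as a pool of about 450 cells, and their RNA was amplified and sequenced as 50 bp SOLiD reads. The values are hits, which are estimated counts of reads on the transcripts of a locus. Listed hits summed to 15257122 in CC1 and 14857500 in CC2. A locus was listed only with at least 5 hits and a hit within 250 bp of the 3′ end of a transcript, so that an unlisted locus was not measured as 0. Levels are given as hits per 1000000 listed hits of the replicate (HPM), for which 5 hits were 0.328 HPM in CC1 and 0.337 HPM in CC2. With 1 condition no test between groups was possible, and the error given is the SD of both replicates.

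Pollen tubes are led over the last stretch to the embryo sac by short secreted peptides. The LURE1 peptides are defensin-like, rich in cysteine, and are released by the synergids, a pair of cells beside the egg cell at the micropylar end of the embryo sac. MYB98, a transcription factor of the R2R3 type, is made in the synergids and is needed there for the filiform apparatus and for the expression of attractants, LURE1 among them. The central cell takes part as well: CCG is a nuclear protein that resembles the general transcription factor TFIIB, and ovules that lack it fail to attract pollen tubes at the micropyle. CBP1 binds CCG and connects it with the Mediator complex, RNA polymerase II and AGAMOUS-like factors of the central cell. The labelled cell type was checked by its markers. All 7 central cell markers (AGL61, AGL80, FWA, FIS2, MEA, DME and CKI1) were listed in both replicates and summed to 1613 HPM in CC1 and 1349 HPM in CC2. Egg cell markers were listed too, 6 of 7, with a sum of 1356 HPM in CC1 and 909 HPM in CC2. Of all nuclear protein-coding loci, 60.5% were listed in at least 1 replicate. The egg cell marker EC1.1, at 842 and 606 HPM, stood above every central cell marker. Listed markers thus do not tell how pure the collected cells were.

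The LURE1 genes lie on chromosome 5 and are close copies of each other, which bears on how reads could be assigned to them. In the TAIR10.1 assembly (RefSeq), LURE1.2, LURE1.3, LURE1.4, LURE1.5 and the transcribed pseudogene LURE1.6 stand on the same strand at chr5:17474049-17488516, a stretch of 14468 bp that also holds AT5G43520. LURE1.1 lies on the other strand at chr5:17370473-17370857, 103191 bp before this cluster. Each of the 5 genes has 2 exons and a transcript of 287 to 401 bases. Coding sequences of LURE1.2 to LURE1.5 were 96.0% to 98.2% identical to each other, and that of LURE1.1 was 87.9% to 88.3% identical to them. The last coding bases are shown because the reads came mostly from the 3′ end, and because they show how little separates the copies. Capitals mark bases that differ from LURE1.3 in the alignment or extend it. Stretches are chr5:17370475-17370606 (minus strand), chr5:17474359-17474478, chr5:17478271-17478390 and chr5:17488397-17488516 (plus strand), each ending with the stop codon.
LURE1.1: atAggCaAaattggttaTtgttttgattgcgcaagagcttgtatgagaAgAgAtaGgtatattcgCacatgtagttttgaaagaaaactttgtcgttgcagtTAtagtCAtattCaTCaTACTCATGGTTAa
LURE1.2: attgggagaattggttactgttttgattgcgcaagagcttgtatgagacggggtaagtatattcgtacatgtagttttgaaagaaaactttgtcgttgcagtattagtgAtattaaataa
LURE1.3: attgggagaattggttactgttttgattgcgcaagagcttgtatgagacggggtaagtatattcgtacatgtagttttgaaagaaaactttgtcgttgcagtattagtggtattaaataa
LURE1.5: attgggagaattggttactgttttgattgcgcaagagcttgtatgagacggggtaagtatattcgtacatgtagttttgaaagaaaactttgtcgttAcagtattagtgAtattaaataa
LURE1.2 and LURE1.5 differed from LURE1.3 at 1 and 2 of these 120 bases, and LURE1.4 at chr5:17484682-17484801 had the same bases as LURE1.2. LURE1.1 has 132 bases here, of which 28 differed from LURE1.3 or had no counterpart in it. Of all 50-base windows of the LURE1.1 transcript, 0% occurred exactly anywhere else in the genome. That share was 75.8% for LURE1.2, 30.0% for LURE1.3, 58.0% for LURE1.4 and 54.0% for LURE1.5. The deposited values of LURE1.2 to LURE1.5 therefore depend on how the authors shared ambiguous hits out, and their split between these copies is uncertain. Reads came from Landsberg *erecta*, whereas the reference is Columbia, and sequence differences between them were not examined.

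Their promoters share letters known to be bound by MYB98. The motif searched was GTAACNT on both strands of the 250 bases before the annotated gene start, and the stretches around its matches are shown because they can be read side by side. Capitals mark the match, which in all 5 lay on the strand opposite to the gene and so reads ANGTTAC here. Stretches of 60 bases are chr5:17371026-17371085 (minus strand), chr5:17473896-17473955, chr5:17477794-17477853, chr5:17484210-17484269 and chr5:17487934-17487993 (plus strand).
LURE1.1: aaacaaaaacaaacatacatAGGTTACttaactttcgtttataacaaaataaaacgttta
LURE1.2: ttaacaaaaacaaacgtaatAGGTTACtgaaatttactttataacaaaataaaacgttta
LURE1.3: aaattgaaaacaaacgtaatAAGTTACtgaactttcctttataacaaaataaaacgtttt
LURE1.4: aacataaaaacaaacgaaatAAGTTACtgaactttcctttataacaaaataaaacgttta
LURE1.5: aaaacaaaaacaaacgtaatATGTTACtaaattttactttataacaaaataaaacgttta
The match began 133, 129, 127 and 134 bases before the gene start in LURE1.2, LURE1.3, LURE1.4 and LURE1.5, and 208 bases before it in LURE1.1. The gene model of LURE1.1 starts at its start codon, and counted to the start codon the 5 matches began 195 to 208 bases away. Among 27443 promoters of the same length of nuclear protein-coding loci, 11.4% held such a match. The promoters of MYB98, CCG and CBP1 held none. With the shorter core GTAAC, which is part of the motif, the share of all promoters was 32.1%, all 5 LURE1 promoters held a match, and again none of the other 3. A match of letters is a description of the sequence and not a binding site.

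Of the 8 loci, 6 were listed, and they were the same 6 in both replicates: the 5 LURE1 genes and CCG. MYB98 and CBP1 were unlisted in both. Of all 27444 nuclear protein-coding loci, 60.5% were listed in at least 1 replicate, so that 6 of 8 is not far from the background. The unlisted loci were thus the transcription factor of the attractants and the partner of CCG. Nothing can be said of their levels below the listing limit.

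The attractants were listed over a wide range of levels, and each of the 5 was higher in CC2 than in CC1. LURE1.3 was the most abundant, with 1378 hits (90.3 HPM) in CC1 and 6029 hits (406 HPM) in CC2, a mean of 248 ± 223 HPM (SD, n = 2). It ranked 1885th of the listed loci in CC1 and 330th in CC2. LURE1.5 had 848 hits (55.6 HPM) in CC1 and 4047 hits (272 HPM) in CC2, a mean of 164 ± 153 HPM. According to its RefSeq note this copy lacks a conserved cysteine and does not affect guidance. Its place above LURE1.2 rests on the uncertain split of shared hits. LURE1.2 had 760 hits (49.8 HPM) and 3409 hits (229 HPM), a mean of 140 ± 127 HPM. LURE1.4 had 164 hits (10.8 HPM) and 644 hits (43.3 HPM), a mean of 27.0 ± 23.0 HPM. LURE1.1, which lies apart from the cluster, was the lowest, with 26.1 hits (1.71 HPM) in CC1 and 141 hits (9.46 HPM) in CC2, a mean of 5.59 ± 5.48 HPM. The pseudogene LURE1.6 was unlisted in CC1 and had 80.9 hits (5.45 HPM) in CC2.

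**Figure D1:**
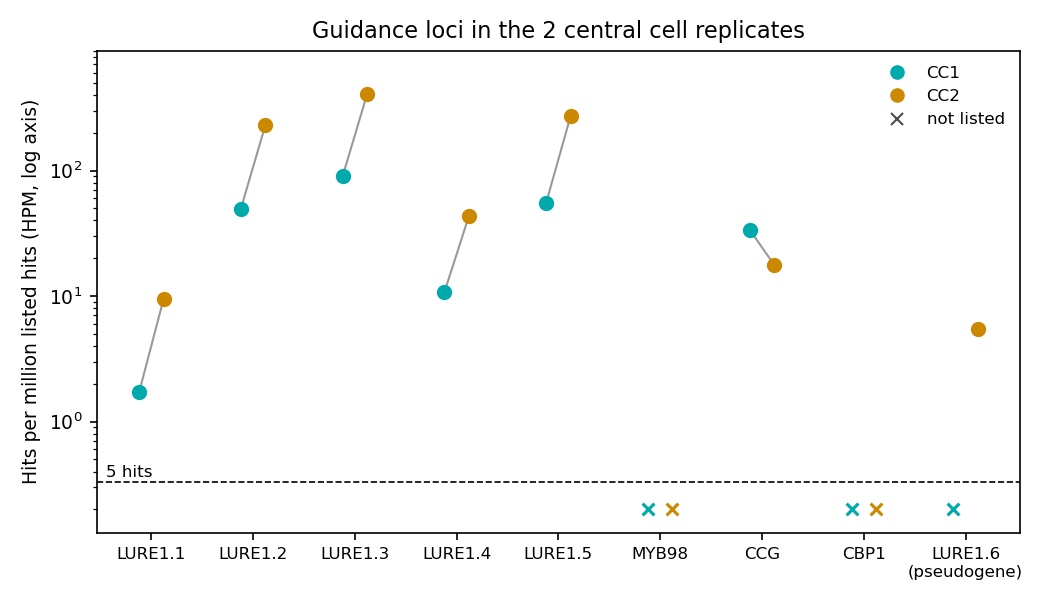
HPM (log axis) of the 8 guidance loci and the pseudogene LURE1.6 in CC1 and CC2, with lines joining the replicates, crosses for unlisted loci (drawn below the scale, not measured values) and a dashed line at 5 hits. All 5 LURE1 genes were higher in CC2, from 1.71 and 9.46 HPM for LURE1.1 to 90.3 and 406 HPM for LURE1.3, whereas CCG was 33.7 HPM in CC1 and 17.7 HPM in CC2.

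To compare copies of unequal length, the levels were also divided by the length of the annotated transcript. On this scale LURE1.3 had 697 ± 627 HPM per kb (SD, n = 2), LURE1.5 491 ± 459, LURE1.2 408 ± 371, LURE1.4 67.4 ± 57.5 and LURE1.1 19.5 ± 19.1 HPM per kb. The order was the same with and without length and the same in each replicate. The SDs hold the difference between replicates that all copies share, and by them neighbours in this order overlapped. Within each replicate, LURE1.2 stood well above LURE1.4, with 146 and 26.8 HPM per kb in CC1 and 671 and 108 in CC2. The proportions of the copies were similar in both replicates. LURE1.3 made up 43.4% of the LURE1 hits in CC1 (95% Wilson interval 41.7 to 45.1) and 42.3% in CC2 (41.4 to 43.1). LURE1.5 made up 26.7% (25.2 to 28.3) and 28.4% (27.6 to 29.1), and LURE1.2 23.9% in both. LURE1.4 made up 5.16% (4.45 to 5.99) and 4.51% (4.18 to 4.87), and LURE1.1 0.822% (0.559 to 1.196) and 0.985% (0.839 to 1.16). For each copy the intervals of the replicates overlapped. They cover counting error only, and since ambiguous hits were shared out by the unambiguous ones, shares of the near-identical copies are not independent of each other.

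MYB98 was listed in neither replicate, whereas the 5 LURE1 genes, whose promoters hold its motif, were listed in both. Its transcript of 1869 bases, at chr4:10311030-10313104, has no 50-base window that is repeated in the genome. Its 3′ end overlaps that of IRX1 (a cellulose synthase subunit) on the opposite strand by 481 bp, and IRX1 was unlisted as well. Transcripts of related MYB factors were present. MYB64 and MYB119, which act in the embryo sac, had 1135 and 1532 hits (74.4 and 103 HPM) and 117 and 212 hits (7.64 and 14.3 HPM) in CC1 and CC2. MYB118, known as a regulator of endosperm maturation, had 290 and 393 hits (19.0 and 26.5 HPM). MYB115 and MYB22 were unlisted, so that 3 of 5 relatives were listed, each in both replicates and none with a difference of 2-fold. Of all nuclear protein-coding loci, 60.5% were listed in at least 1 replicate, so that 3 of 5 is near the background.

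CCG was listed in both replicates at a moderate level. It had 513 hits (33.7 HPM) in CC1 and 263 hits (17.7 HPM) in CC2, a mean of 25.7 ± 11.3 HPM (SD, n = 2), and ranked 4938th and 7603rd. Per length of its transcript of 2456 bases, at chr2:859441-862076, this was 10.5 ± 4.59 HPM per kb, with 13.7 in CC1 and 7.21 in CC2. In each replicate this was below LURE1.2 to LURE1.5. LURE1.1 lay on either side of it, at 5.97 HPM per kb in CC1 and 32.96 in CC2. Without division by length, LURE1.2, LURE1.3 and LURE1.5 stood above CCG in both replicates. LURE1.4 was below CCG in CC1 (10.8 HPM) and above it in CC2 (43.3 HPM). LURE1.1 was below CCG in both, with 1.71 and 9.46 HPM. Only 1.62% of the 50-base windows of CCG occurred elsewhere in the genome. Its 3′ end overlaps the locus AT2G02960 on the other strand by 48 bp, and this neighbour had 105 and 77 hits. CBP1, at chr2:6920369-6922161 with a transcript of 1622 bases and no repeated window, was unlisted in both replicates. The locus that follows it at a distance of 49 bp, AT2G15880, was unlisted in CC1 and had 18 hits in CC2.

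Attractants and central cell regulators were then set side by side within each replicate. LURE1 summed to 208 HPM in CC1, which is 0.0208% of the listed hits (95% Wilson interval 0.0201 to 0.0216), and to 960 HPM in CC2, or 0.0960% (0.0945 to 0.0976). Their mean was 584 ± 532 HPM (SD, n = 2). The regulators, of which CCG alone was listed, came to 33.7 HPM in CC1 and 17.7 HPM in CC2. Attractant hits thus exceeded regulator hits 6.19-fold in CC1 and 54.2-fold in CC2, a log2 ratio of 2.63 and 5.76 (mean 4.20 ± 2.21 SD). Per kb of transcript the ratio was 43.7 in CC1 and 384 in CC2, a mean log2 ratio of 7.02 ± 2.22. Because reads gather at the 3′ end, division by the full length lowers long transcripts such as CCG more than short ones such as LURE1, which raises the ratio per kb. The direction was the same in both replicates, and the size of the ratio differed several-fold between them, as LURE1 was lower and CCG higher in CC1. In pooled cells, fewer cells of a type and less RNA per cell cannot be told apart.

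All examined loci of the machinery that CCG and CBP1 are known to bind were listed in at least 1 replicate. Of all nuclear protein-coding loci, 60.5% were. All 9 transcription partners in the list were listed, 8 of them in both replicates, with a sum of 624 HPM in CC1 and 682 HPM in CC2, and none differed by 2-fold. NRPB2, a large subunit of RNA polymerase II, was the highest by the mean of both replicates, with 1975 and 1584 hits (129 and 107 HPM). In CC2, AGL62, a factor of the endosperm, stood above it with 1771 hits (119 HPM), as did TFIIB1. The AGAMOUS-like factors AGL80 and AGL61, which act as partners in the central cell, had 1329 and 1222 hits (87.1 and 82.3 HPM) and 1659 and 1493 hits (109 and 100.5 HPM). TFIIB1, a general factor of the kind that CCG resembles, had 1054 and 1675 hits (69.1 and 113 HPM), whereas its close copy TFIIB2 was unlisted in CC1 and had 11 hits in CC2. All 33 Mediator subunits in the list were listed, 32 of them in both replicates. Their sum was 588 HPM in CC1 and 633 HPM in CC2. MED12, of the kinase module, was the highest with 1217 and 1067 hits (79.8 and 71.8 HPM), and MED15A, of the tail, was the lowest with 15 and 13 hits (0.983 and 0.875 HPM). Of these 32 subunits, 9 (28.1%) were at least 2-fold higher and 3 (9.38%) at least 2-fold lower in CC2, beside 14.7% and 15.5% of all loci listed in both. CBP1 itself was listed in neither replicate, and nothing can be said of its level below the listing limit.

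Loci that act on the side of the pollen tube and other maternal guidance genes were examined next. Of 12 genes for receptors of LURE1 and their partners in the pollen tube, 3 (25.0%) were listed, beside 60.5% of all nuclear protein-coding loci. PRK6 and MDIS1, receptors that perceive LURE1, were unlisted, as were MIK1 and LIP2. PRK4, a receptor-like kinase of the PRK family, had 201 and 296 hits (13.2 and 19.9 HPM), and MIK2, a kinase that is also made outside pollen, had 157 and 131 hits (10.3 and 8.82 HPM). LIP1, a kinase anchored in the tip of the pollen tube, was unlisted in CC1 and had 51 hits in CC2. Of the 4 other maternal guidance genes, 3 were listed in both replicates. POP2, the transaminase that degrades GABA, had 1815 and 962 hits (119 and 64.8 HPM). MAA3, a helicase, had 156 and 207 hits (10.2 and 13.9 HPM), and POD1, a protein of the endoplasmic reticulum, had 55 and 268 hits (3.60 and 18.0 HPM). GEX3 was unlisted. POP2 was lower in CC2, as CCG was, and POD1 was higher in CC2, as LURE1 was.

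The replicates differed in the same direction and by similar amounts at every LURE1 gene. LURE1.1 was 5.52-fold higher in CC2 (counting interval 3.68 to 8.44), LURE1.2 4.61-fold (4.26 to 4.98), LURE1.3 4.49-fold (4.24 to 4.76), LURE1.4 4.03-fold (3.40 to 4.79) and LURE1.5 4.90-fold (4.55 to 5.28). The sum of all 5 was 4.61-fold higher. The libraries also differed in their making: amplified cDNA of CC1 was somewhat shorter and scarcer than that of CC2, and fungal RNA was present in CC1. The paper holds an effect of the fungi on aligned values to be unlikely, as fungal reads mostly failed to align to the plant genome. The part of the shorter cDNA or of the fungal RNA in the levels of LURE1 was not tested here. CCG went the other way and was 1.90-fold higher in CC1, a CC2-to-CC1 ratio of 0.526 (0.453 to 0.610). These 95% intervals cover counting error only, and amplified reads are not independent molecules. At least 2-fold higher in CC2 were 5 of the 6 listed guidance loci, beside 14.7% of the 13426 loci listed in both replicates. At least 4-fold higher, a limit added after the values of LURE1 had been seen, were the same 5 loci, beside 5.04% of all. At least 2-fold lower in CC2 were 0 of the 6, beside 15.5% of all. The median CC2-to-CC1 ratio of all 13426 loci was 0.955.

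Differences between replicates grow as hits become few, so each locus was also set beside loci of similar abundance, with mean hits within 2-fold of its own. For the 3 abundant attractants so large a difference was rare. Of the 1018 loci near LURE1.3, 1.67% were at least 2-fold higher in CC2 and 0.982% reached its ratio, with the guidance loci themselves left out of these sets. Of the 1532 loci near LURE1.5, 0.392% reached its ratio, and of the 1830 near LURE1.2, 0.492% did. Differences of this size were more common around the other loci: 3.05% of 5610 loci reached the ratio of LURE1.4 and 7.21% of 3174 that of LURE1.1. The lower level of CCG in CC2 was ordinary for its abundance, as 16.6% of 5633 loci near it had a ratio as low. LURE1.1 had no exact 50-base window in common with another locus. Its ratio was as high as those of LURE1.2, LURE1.4 and LURE1.5, which share most of their windows. Some windows of LURE1.1 did match another LURE1 gene when up to 2 mismatches were allowed. Hits of LURE1.1 were also not whole numbers, at 26.1 in CC1 and 140.5 in CC2. The part of shared reads in the ratio of LURE1.1 was not tested. Apart from LURE1 copies and the pseudogene LURE1.6, which was listed in CC2 alone, the direct neighbours of the LURE1 genes were close to even between the replicates or unlisted. ARP9, an actin-related gene 429 bp before LURE1.2, had 107 and 102 hits, DCI1, an isomerase gene beside LURE1.1, had 550 and 476 hits, and WRKY49, AT5G43520 and AT5G43530 were unlisted.

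**Figure D2:**
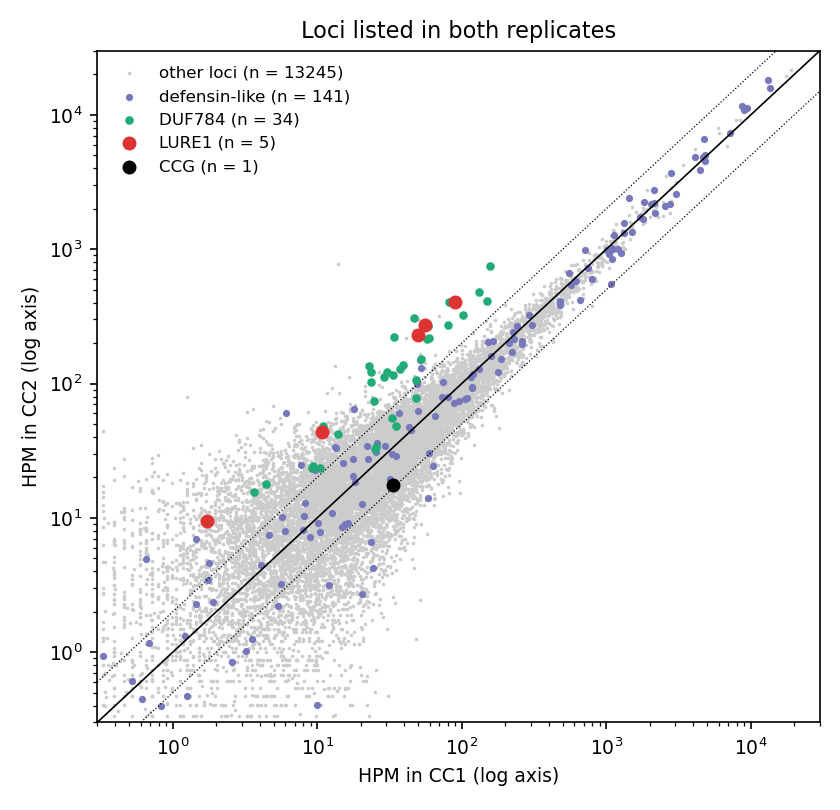
HPM in CC1 (x) and CC2 (y), log axes, of the 13426 loci listed in both replicates, with LURE1, CCG, DUF784 and other defensin-like loci in colour, a solid line for equal levels and dotted lines for 2-fold differences. The 5 LURE1 genes lie 4.03-fold to 5.52-fold above the line of equality and DUF784 loci 1.31-fold to 6.59-fold (median 3.50), whereas defensin-like loci lie around it.

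Other defensin-like genes, the wider family of LURE1, did not share this difference. Of 279 such loci without LURE1, 158 (56.6%) were listed in at least 1 replicate, beside 60.5% of all nuclear protein-coding loci. Of the 158, 141 were listed in both replicates. Of these 141, 13 (9.22%) were at least 2-fold higher and 13 at least 2-fold lower in CC2, with a median ratio of 0.986. The most abundant, AT2G24693, AT3G24510 and AT1G56553, had 13238 and 18040 HPM, 13496 and 15954 HPM, and 9356 and 11160 HPM, far above LURE1 and close to even between the replicates. Loci with short transcripts were examined too, without matching them by abundance. Of 148 loci listed in both with a transcript no longer than that of LURE1.4, 16.9% were at least 2-fold higher in CC2. At least 4-fold higher were 6.76%, and the median ratio was 0.969. The shares of all loci listed in both were 14.7% and 5.04%.

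The loci with levels most like those of the abundant attractants were mostly of another family of small proteins. Likeness was the distance between log2 HPM values over the 2 samples, and the 3 nearest loci of each gene were taken. For LURE1.2 they were AT2G24205, AT3G30383 and DD11, for LURE1.3 AT4G08025, AT2G21655 and GILT, and for LURE1.5 AT4G13261, AT1G01305 and AT2G24205. AT4G08025, the nearest to LURE1.3, had 82.0 HPM in CC1 and 407 HPM in CC2, and AT4G13261, the nearest to LURE1.5, had 58.8 and 266 HPM. Of these 8 loci, 5 carry the domain of unknown function DUF784, which is found in several proteins annotated as of the ECA1 gametogenesis family. None of the 6 loci nearest to LURE1.1 and LURE1.4 carries it. For CCG the nearest were FAB1D, HYL1 and AT2G29020. With 2 samples, likeness says only that both levels are close, so that loci nearest to LURE1 are higher in CC2 by the choice.

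DUF784 was therefore examined as a whole, a choice made after several of its loci had been seen among those higher in CC2, so that its counts are a description. Of 41 annotated DUF784 loci, 37 (90.2%) were listed in at least 1 replicate, beside 60.5% of all nuclear protein-coding loci. Listed in both replicates were 34, the 5 nearest loci named above among them. All 34 were higher in CC2, beside 6231 of all 13426 loci listed in both. At least 2-fold higher were 29 (85.3%) and at least 4-fold 12 (35.3%), beside 14.7% and 5.04% of all. Ratios of the 34 ran from 1.31 to 6.59 with a median of 3.50. All listed DUF784 loci summed to 1552 HPM in CC1 and 5659 HPM in CC2, 3.65-fold higher. AT5G42567 was the most abundant with 158 HPM in CC1 and 751 HPM in CC2, followed by AT4G13263 with 132 and 483 HPM and AT3G11990 with 148 and 412 HPM. Close copies exist in this family too, and hits may have been shared between them. The MYB98 letters GTAACNT were found in 22 of 41 DUF784 promoters (53.7%), in all 5 LURE1 promoters, in 36 of 250 promoters of protein-coding defensin-like loci (14.4%), and in 11.4% of all. With the core GTAAC the share was 80.5% for DUF784 and 32.8% for defensin-like loci, beside 32.1% of all. Near-identical copies share their promoters in part, so these are not independent cases.

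**Figure D3:**
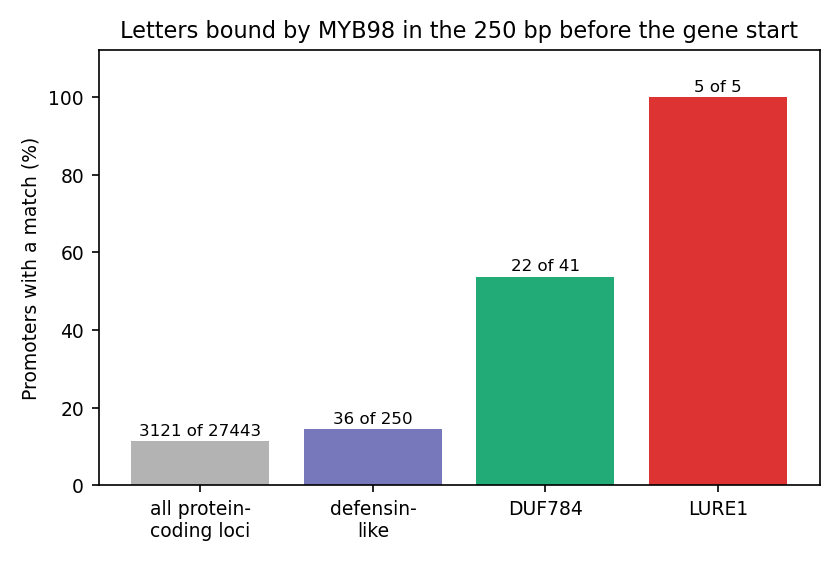
Share of promoters (250 bp before the gene start, y axis in percent from 0) that hold the letters bound by MYB98 on either strand, for all nuclear protein-coding loci, defensin-like loci without LURE1, DUF784 and LURE1, with counts above the bars. The share was 11.4% of all promoters, 14.4% of defensin-like, 53.7% of DUF784 and 5 of 5 of LURE1.

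Markers of the cells around the central cell went in both directions between the replicates. Of the 8 synergid markers in the list, 7 were listed, 5 of them the LURE1 genes themselves, and MYB98 was unlisted. NTA, a synergid protein needed when the pollen tube arrives, had 1053 hits (69.0 HPM) in CC1 and 691 hits (46.5 HPM) in CC2, so it was lower in CC2. LRE, which acts in the same step, was higher in CC2 but stood near the listing limit with 8 and 13 hits. Of 7 egg cell markers, 6 were listed, with a sum of 1356 HPM in CC1 and 909 HPM in CC2. The 5 EC1 genes were lower in CC2, with EC1.1 highest at 842 and 606 HPM, RKD2 was higher with 18 and 93 hits, and RKD1 was unlisted. Of 3 integument markers, INO was unlisted, BAN had 72 and 17 hits, and STK was unlisted in CC1 and had 172 hits in CC2. All 4 pollen and sperm markers were listed in at least 1 replicate. Their sum was 36.3 HPM in CC1 and 16.8 HPM in CC2. CNGC18 made up most of it, with 30.0 and 9.02 HPM, and VGD1 had 58.6 and 55 hits. GCS1 was listed in CC1 alone with 37 hits, and CHX21 in CC2 alone with 60 hits. Beside these counts of markers, 60.5% of all nuclear protein-coding loci were listed in at least 1 replicate. Central cell markers had CC2-to-CC1 ratios of 0.679 to 1.18. The part that RNA of neighbouring cells had in the levels of LURE1, and in the difference between the replicates, was not tested.

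**Figure D4:**
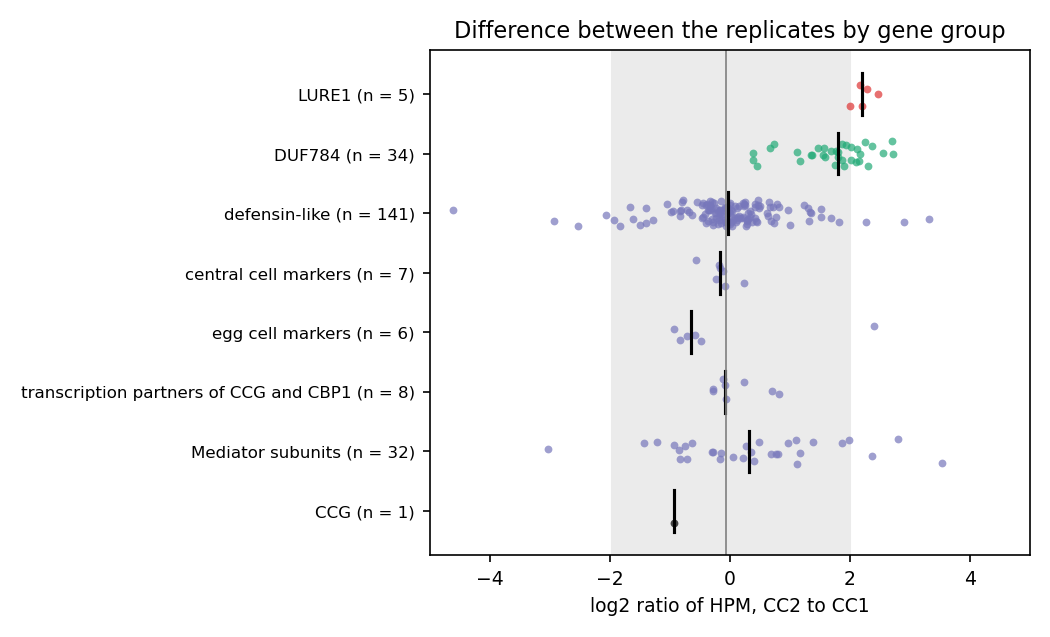
Log2 ratio of HPM in CC2 to CC1 (x axis) for each locus listed in both replicates, by gene group, with a black line at the median of the group, a grey line at the median of all 13426 loci (-0.07) and a grey band from their 5th to their 95th percentile (-1.96 to 2.01). LURE1 lies at 2.01 to 2.47 and DUF784 at a median of 1.81, whereas defensin-like loci, central cell markers and transcription partners centre near 0 and CCG lies at -0.93.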

How the data were processed

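The data are 2 RNA-Seq libraries of central cells. The authors corrected the reads with SAET, aligned them with TopHat 1.2 to TAIR10, allowed up to 10 alignments per read and weighted these by unique reads nearby. The deposited values are estimated counts of the hits on each locus, neither scaled nor pooled; ambiguous hits were shared out by unambiguous ones. Of the values, 75.6% in CC1 and 75.0% in CC2 were whole numbers, with no tolerance. Libraries were unstranded, so that overlapping genes on opposite strands cannot be told apart, and amplification began at the poly(A) tail, which favours 3′ ends.

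From these values HPM, means, SDs and ratios were computed, with an unlisted locus as 0 in sums. Wilson intervals of 95%, for shares and (from the share of CC2 in the hits of both replicates) for ratios, cover counting error only. TMM (edgeR 4.0.16) and DESeq2 1.42.0 served as alternative scalings, on hits rounded to whole numbers. They were tested on simulated data. Positions and sequences came from RefSeq TAIR10.1, whose gene models may differ from those used for counting, and coding sequences were aligned with MAFFT 7.526. Analyses used Python 3.11.15, numpy 2.4.6, pandas 2.3.3, scipy 1.17.1, matplotlib 3.10.9 and R 4.3.3.

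Members and gene lists were chosen with earlier results of these data known. Named are the 8 loci, list members (of long lists those with the highest and lowest mean HPM as examples), the 3 nearest loci of each member, the direct neighbours, the 3 most abundant loci of a family, and LURE1.6. Alternatives were hit minimums of 10 and 20, organelle loci left out of the totals, both scalings, levels per kb, unlisted loci at 5 hits, unscaled log2(hits + 1), the core motif, and each replicate alone. The 4-fold limit, the DUF784 family, and the attractants without LURE1.5 or with LURE1.6 were chosen after seeing the data.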

Additional observations from a re-analysis of the deposited data

How the results depend on the processing

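Of 77 alternative values, 1 moved beyond the spread of the main value: the log2 ratio of attractants to central cell regulators per kb of transcript, 7.02 in place of 4.20, as the LURE1 transcripts are far shorter than that of CCG. Many others could not move, since with 2 replicates each lies within the SD of their mean and a scaling cancels in a ratio within a replicate. The log2 ratios of CC2 to CC1 of the 6 listed loci kept their sign under both scalings, without organelle loci and unscaled. TMM and DESeq2 scaling shifted every log2 ratio of CC2 to CC1 by 0.08 and 0.07. With 1 replicate at a time the log2 ratio of attractants to regulators was 2.63 to 5.76, LURE1.1 was 1.71 to 9.46 HPM, LURE1.2 49.8 to 229, LURE1.3 90.3 to 406, LURE1.4 10.8 to 43.3, LURE1.5 55.6 to 272 and CCG 17.7 to 33.7 HPM, and 6 loci were listed each time. Without LURE1.5 the log2 ratio of attractants to regulators was 3.73, and with LURE1.6 it was 4.20. No paired analysis was possible because there was 1 condition. Few hits limit the precision for LURE1.1 and LRE, and nothing can be said of the level of unlisted loci below the listing limit.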
